A study of Homo sapiens with 4 samples.

Results

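The 10 genes described here store, import, export, release or sense iron in the cell, and were taken by symbol from a table of 20804 genes. They are FTH1, FTL, TFRC, STEAP3, SLC11A2, SLC40A1, HMOX1, NCOA4, IREB2 and ACO1. The set was put together with the difference between the knockout and wild-type libraries in view, so that difference is given for these genes as a description. No p is given for them, and where the fit across all genes placed them under its threshold this is stated as a count that supports nothing. RNA was sequenced in 4 libraries of MDA-MB-231, an established human line of triple-negative breast cancer cells (without oestrogen receptor, progesterone receptor or HER2). Of these, 2 libraries came from cells labelled wild type (WT) and 2 from cells labelled as knocked out for miR-3662, a microRNA (KO). No treatment, time point or second allele is named for either group. How the knockout was made, whether it is 1 clone, and whether replicates are separate cultures are not stated in the labels. The spread between replicates may therefore be technical, and p-values measure only that spread. The title of the series names CRISPR interference and activation and its design text names sorting by activity of the microRNA, so the exact meaning of KO is uncertain.

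Iron enters most cells bound to transferrin through the transferrin receptor, is reduced in the endosome by STEAP3 and leaves the endosome through SLC11A2 (DMT1). Iron that is not used is kept inside ferritin, a shell of heavy chains (FTH1, which oxidise the iron) and light chains (FTL, which favour its deposition), and NCOA4 carries ferritin to the lysosome when iron is needed. SLC40A1 (ferroportin) exports iron, and HMOX1 frees it from heme. The iron regulatory proteins, encoded by ACO1 and IREB2, bind a hairpin called the iron-responsive element (IRE) in iron-poor cells, where they block translation of ferritin mRNA from its 5′ UTR and protect TFRC mRNA through its 3′ UTR.

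The hairpins are shown because they are the feature by which FTH1, FTL and TFRC are known to be governed in opposite ways. They were sought in GENCODE 29 transcripts (GRCh38) as a bulged C, 5 paired bases, the loop CAGTGN and 5 paired bases, on the transcript strand, with G-T pairs allowed. Each is written 5′ to 3′ with the loop in capitals.
FTH1, 5′ UTR, chr11:61967574-61967602, minus strand: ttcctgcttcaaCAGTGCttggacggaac
FTL, 5′ UTR, chr19:48965335-48965363, plus strand: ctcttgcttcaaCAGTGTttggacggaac
SLC40A1, 5′ UTR, chr2:189580661-189580689, minus strand: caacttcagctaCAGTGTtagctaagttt
TFRC, 3′ UTR, chr3:196050979-196051007, minus strand: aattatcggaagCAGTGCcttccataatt
TFRC, 3′ UTR, chr3:196050575-196050603, minus strand: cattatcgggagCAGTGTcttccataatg
TFRC, 3′ UTR, chr3:196050510-196050538, minus strand: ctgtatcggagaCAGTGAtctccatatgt
TFRC, 3′ UTR, chr3:196050463-196050491, minus strand: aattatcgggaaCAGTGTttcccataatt
The windows of FTH1 and FTL were identical at 26 of 29 positions. A match was found in a 5′ UTR of 36 of 18827 genes (0.191%) and in a 3′ UTR of 132 of 19107 genes (0.691%), and only 2 genes (0.0105%) had 3 or more in a 3′ UTR. No window of this form was found in the other 6 members, which says only that the pattern is not in the annotated UTRs. The pattern also found none in EPAS1 and CDC42BPA, whose mRNAs are known to carry an IRE. It therefore misses known hairpins, and the other 6 members are not shown to lack an IRE.

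The microRNA itself was not a row of the table, so these data do not check the knockout. Its mature sequence (RefSeq, GRCh38.p14, chr6:134979355-134979378, minus strand) is given with the seed, positions 2 to 8, in capitals.
miR-3662: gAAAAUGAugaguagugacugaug
The 7-base match to this seed is TCATTTT. In the longest annotated 3′ UTR it occurred 3 times in ACO1, once each in TFRC, IREB2 and SLC11A2, and not in FTH1, FTL, HMOX1, NCOA4, SLC40A1 or STEAP3. Over all genes, 29.65% had at least 1 such match. Of the 4 genes with a match, ACO1, TFRC and IREB2 had overlapping KO and WT values, and SLC11A2 was higher in both KO libraries than in both WT libraries. Among all tested genes KO lay wholly above WT in 39.3% and the groups did not overlap in 68%. Nothing about the microRNA is read from these 4 genes. A match of 7 bases is a description and not a shown target site.

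Values are FPKM, fragments scaled by transcript length and by mapped fragments, so they can be compared between genes. Their sums per library ranged from 504102 to 544650, and the number of fragments behind a value is unknown. The line's own markers VIM, CD44 and EGFR were present in all libraries, while ESR1, CDH1 and ESRP1 stayed at or under 0.2 FPKM. Across 11786 tested genes (at least 1 FPKM in at least 2 libraries), 3184 passed an adjusted p of 0.05 in limma, 1906 higher and 1278 lower in KO, and with libraries scaled by the median of ratios 1413 were higher and 1828 lower. In bulk RNA a higher level in every cell and a larger share of cells with a high level cannot be told apart.

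Ferritin mRNA, both chains together, was the most abundant transcript group of the set and stood more than 3 times higher in KO than in WT. FTH1 (chr11:61959718-61967660, minus strand) had 550 and 641 FPKM in WT, and 1886 and 2129 FPKM in KO. The mean went from 596 ± 64.5 to 2007 ± 172 FPKM (SD, n = 2 per group), a 3.37-fold difference. FTL (chr19:48965301-48966878, plus strand) was at 833 and 1044 FPKM in WT and at 3017 and 3700 FPKM in KO. Its mean went from 939 ± 149 to 3359 ± 483 FPKM (SD, n = 2), a 3.58-fold difference. For both chains the groups were far apart: the lower KO value exceeded the higher WT value by 2.94 times for FTH1 and by 2.89 times for FTL. On the scale of log2(FPKM + 1) the KO minus WT difference was 1.75 ± 0.12 (SE) for FTH1 and 1.84 ± 0.14 for FTL, which put FTL at place 50 and FTH1 at place 63 among 11786 genes ordered from the largest rise. The 2 WT libraries differed from each other by 0.22 for FTH1 and 0.33 for FTL, and the 2 KO libraries by 0.18 and 0.29.

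By level, FTL moved from places 92 and 76 in the WT libraries to places 8 and 6 in the KO libraries, among 20804 genes ordered by FPKM. FTH1 moved from places 128 and 116 to places 27 and 21. Together the pair made up 0.274% and 0.324% of the summed FPKM in WT, and 0.927% and 1.07% in KO. Both chains have processed copies across the genome: GENCODE 29 names 25 FTH1 pseudogenes and 16 FTL pseudogenes. Of these only FTH1P3 and FTH1P18 were rows of the table, at no more than 0.61 FPKM, and the labels do not state how reads shared with such copies were assigned. The exons of FTH1 also overlap those of BEST1 on the opposite strand, and BEST1 was at most 0.13 FPKM in any library. Macrophages are rich in ferritin, and markers of other cell types were read beside this result. CD68 was at 30.2 and 39.0 FPKM in WT and at 67.7 and 117 FPKM in KO. It passed as higher in KO (1.35 ± 0.25, SE, adjusted p 0.00863 in limma). CD68 encodes a lysosomal membrane protein made by macrophages and by other cells, and bulk RNA does not tell which cells its reads came from. The leukocyte marker PTPRC and the macrophage marker CD163 were listed at 0 in all 4 libraries. Of 10 such markers 7 were in the table, and without CD68 their summed level was 0.07 and 0.09 FPKM in WT and 0.28 and 0.46 FPKM in KO. Whether other cells contributed to the ferritin values was not tested.

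**Figure D1:**
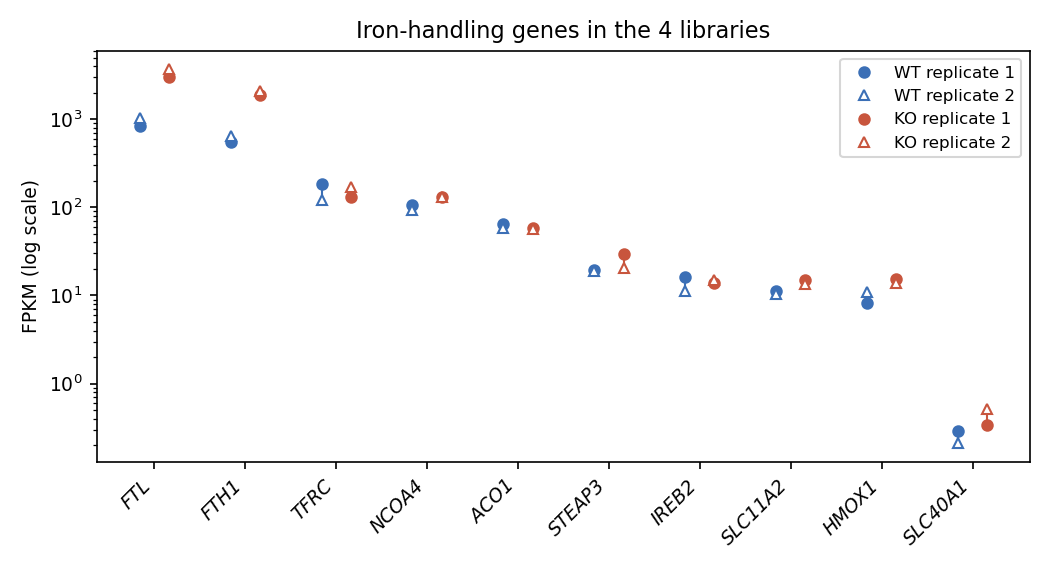
FPKM (log axis) of the 10 iron-handling genes in each library, ordered by the WT mean; circles are replicate 1, open triangles replicate 2, blue WT and red KO, and a line joins the 2 replicates. The KO points lie above the WT points in 7 genes, with the widest gaps in FTL and FTH1, where the lower KO value is 2.89 and 2.94 times the higher WT value. KO lay above WT in 39.3% of all tested genes, and SLC40A1, among the 7, was not tested.

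The chain ratio moved little beside the levels. FTL over FTH1 was 1.51 and 1.63 in WT and 1.60 and 1.74 in KO, so the groups overlapped and the light chain message was the higher one in every library. FTH1 over TFRC, a comparison of storage with uptake, was 2.96 and 5.27 in WT and 14.3 and 12.4 in KO. FTH1 over NCOA4 was 5.12 and 6.85 in WT and 14.5 and 16.1 in KO. Both of these ratios stood higher in each KO library than in each WT library. Since FTH1 was chosen on this contrast and TFRC and NCOA4 differed far less, they restate the rise of FTH1 and are no further result.

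**Figure D2:**
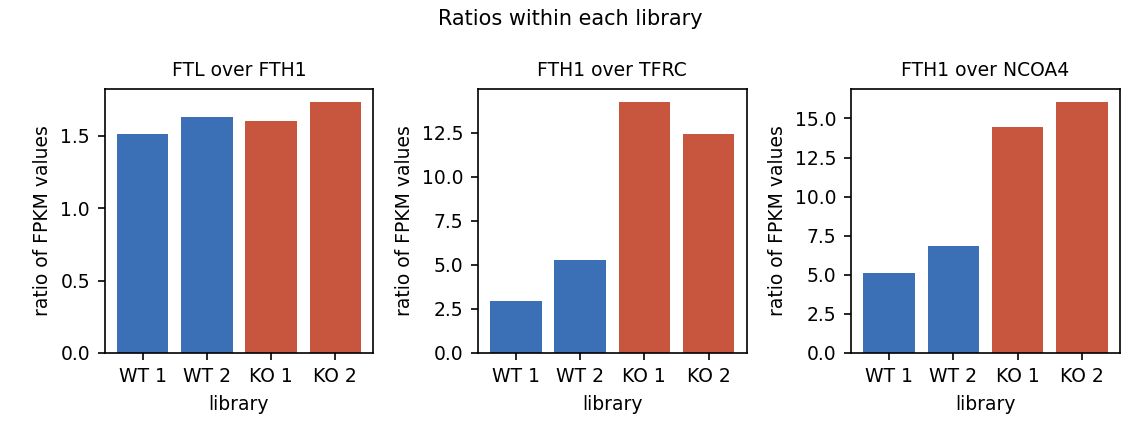
Ratios of FPKM values within each library, for FTL over FTH1, FTH1 over TFRC and FTH1 over NCOA4; each bar is 1 library, blue WT and red KO, and the axes start at 0. The chain ratio lies between 1.51 and 1.74 in all 4 libraries, while FTH1 over TFRC is 5.27 or less in WT and 12.4 or more in KO. The ratios of FTH1 over TFRC and over NCOA4 restate the rise of FTH1.

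The uptake genes showed no difference of that size. TFRC (chr3:196027183-196082189, minus strand), the transferrin receptor, was at 186 and 122 FPKM in WT and at 132 and 172 FPKM in KO. The KO values lay between the WT values, and the means were 154 ± 45.3 and 152 ± 27.8 FPKM (SD, n = 2). The difference between the 2 WT libraries, 0.61 on the log2(FPKM + 1) scale, was the largest replicate difference in the set, so the data leave a wide margin for TFRC (KO minus WT 0.0034 ± 0.21, SE). STEAP3 (chr2:119223831-119265652, plus strand), the endosomal ferrireductase, was at 19.5 and 18.8 FPKM in WT and at 29.9 and 20.3 FPKM in KO. Its KO libraries lay above WT, but the second by a small margin, and they differed from each other more than the groups did (0.54 against 0.35 on the log2 scale). An antisense gene, STEAP3-AS1, shares exonic bases with it and was at most 0.09 FPKM. SLC11A2 (chr12:50979401-51028566, minus strand), the transporter that moves iron out of the endosome, was at 11.3 and 10.4 FPKM in WT and at 15.0 and 13.6 FPKM in KO, without overlap and with a mean 1.32 times higher. Among all tested genes KO lay wholly above WT in 39.3%.

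The exporter was barely detected. SLC40A1 (chr2:189560579-189583758, minus strand), the only known cellular iron exporter, was at 0.29 and 0.21 FPKM in WT and at 0.34 and 0.51 FPKM in KO. Its values are higher in KO, but all 4 lie under 1 FPKM, so it was the 1 member of 10 that did not reach the filter and has no fitted value.

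Genes that release iron from heme (HMOX1) or from ferritin (NCOA4) were modestly higher in KO. HMOX1 (chr22:35380361-35394214, plus strand), heme oxygenase 1, was at 8.32 and 10.9 FPKM in WT and at 15.3 and 13.9 FPKM in KO, with a mean of 9.63 ± 1.85 against 14.6 ± 1.05 FPKM (SD, n = 2), 1.52 times higher. NCOA4 (chr10:46005088-46030714, minus strand), the receptor that delivers ferritin to autophagy, was at 107 and 93.6 FPKM in WT and at 130 and 132 FPKM in KO, 1.31 times higher. Neither gene's groups overlapped, but KO lay wholly above WT in 39.3% of all tested genes, so little is read from that. The log2 differences were 0.56 ± 0.16 for HMOX1 and 0.39 ± 0.11 for NCOA4 (SE), against 1.75 for FTH1.

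The iron sensors differed by less between the groups than between the 2 WT libraries. IREB2 (chr15:78437431-78501456, plus strand), which encodes iron regulatory protein 2, was at 16.03 and 11.33 FPKM in WT and at 13.8 and 15.1 FPKM in KO, with both KO values inside the WT range. ACO1 (chr9:32384603-32454769, plus strand) encodes iron regulatory protein 1, which is a cytosolic aconitase when it carries an iron-sulphur cluster. It was at 64.6 and 57.8 FPKM in WT and at 57.8 and 57.2 FPKM in KO, and the highest KO value equalled the lowest WT value. The KO libraries of ACO1 were close together, 0.015 apart on the log2 scale against 0.16 for WT and a group difference of -0.086. ACO1 was the more abundant of the pair in each library, by 3.78 to 5.10 times. Binding of these proteins to RNA is set by iron and by protein turnover, which mRNA levels do not measure.

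Across the set, KO values lay wholly above WT values in 7 of 10 genes, overlapped or touched in TFRC, IREB2 and ACO1, and lay wholly below in none. Among all tested genes KO lay above in 39.3% and below in 28.7%, 68% in all. These shares do not cover SLC40A1, which is among the 7 but lay under the filter. Of the 9 genes above the filter, the fit across all genes placed 4 under its threshold, all higher in KO: FTH1, FTL, HMOX1 and NCOA4. The background was 27% in either direction and 16.2% higher in KO, and since the set was chosen on this contrast nothing is read from the count, its medians or how they hold under other settings. After scaling by the median of ratios the count was 2, FTH1 and FTL, and it was the same pair without the first WT library or without the first KO library. Without the second WT library NCOA4 dropped out, and without the second KO library STEAP3 took the place of HMOX1 and NCOA4. The median log2 difference of the 9 genes was 0.37, beside 0.074 over all tested genes, and after scaling 0.27 beside -0.021.

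**Figure D3:**
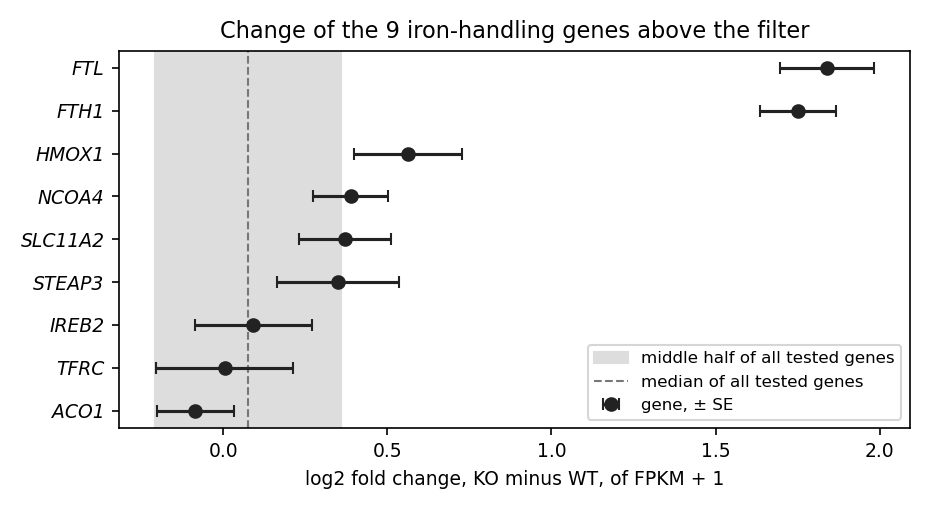
KO minus WT difference in log2(FPKM + 1) of the 9 iron-handling genes above the filter, with SE; the grey band runs from the lower to the upper quartile of all tested genes and the dashed line is their median. FTL (1.84) and FTH1 (1.75) lie far outside the band, HMOX1 (0.56) lies above it, NCOA4 (0.39) and SLC11A2 (0.37) just above its upper edge of 0.36, and STEAP3 (0.35), TFRC, IREB2 and ACO1 within it.

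In order of level in WT, FTL was followed by FTH1, TFRC, NCOA4, ACO1, STEAP3, IREB2, SLC11A2, HMOX1 and SLC40A1. The values of SLC11A2 and HMOX1 overlapped in WT, so their order is not set. In KO the values of IREB2, SLC11A2 and HMOX1 overlapped one another, as did those of TFRC and NCOA4, while FTL and FTH1 kept the first places and did not overlap.

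**Figure D4:**
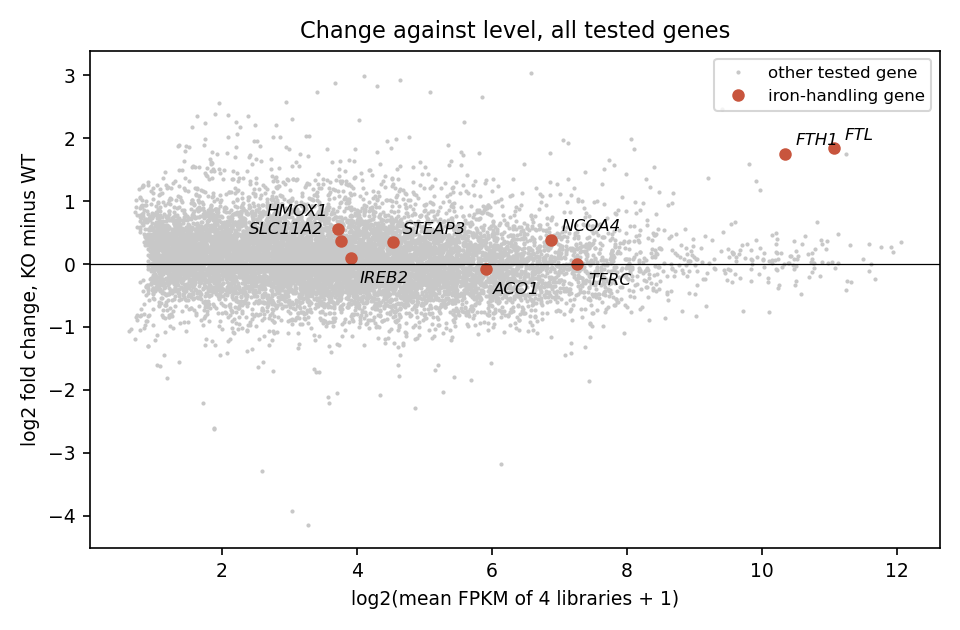
KO minus WT difference in log2(FPKM + 1) against the log2 of the mean FPKM of the 4 libraries plus 1, for 11786 tested genes; red points are the 9 iron-handling genes. FTH1 (1.75) and FTL (1.84) are the red points at the upper right, and the other 7 lie between -0.086 and 0.56.

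Over the 4 libraries, the genes whose centred log2(FPKM + 1) profile lay nearest to that of FTH1 by Euclidean distance were CYP2J2 (distance 0.058), DHRS4-AS1 (0.11) and TNFRSF21 (0.12). CYP2J2 is a low-level example, at 0.14 and 0.30 FPKM in WT and at 3.04 and 3.42 FPKM in KO. CYP2J2 reached the filter only through its KO libraries. The added 1 FPKM shrinks its difference on this scale, so its nearness to FTH1 depends on that setting. For TFRC they were SMC5 (0.062), CCP110 (0.067) and SRFBP1 (0.078), with the same order of libraries and no separation of the groups. With 4 libraries such likeness carries little information.

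The other genes of iron metabolism, which are not members, were counted with limma on log2(FPKM + 1) over all tested genes, against a background of 27% passing. Their log2 fold changes are KO minus WT with SE. Among other uptake genes, 7 of 14 were tested, 1 rose and 1 fell, and the median was 0.38. CYBRD1, a plasma membrane ferrireductase, rose from 5.37 and 5.75 FPKM to 12.01 and 14.08 FPKM (1.09 ± 0.15, adjusted p 0.00362). SLC39A14 (ZIP14), an importer of iron outside transferrin, fell from 41.0 and 36.1 to 27.5 and 30.0 FPKM (-0.41 ± 0.13, adjusted p 0.04997), a call that was lost when any 1 library was left out (adjusted p 0.0920 to 0.241). The transferrin gene TF was at or near 0 throughout.

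In the list of export and hepcidin control, 5 of 11 genes were tested, 1 rose and 2 fell, and the median was -0.051. HFE, whose protein binds the transferrin receptor, rose from 3.05 and 3.53 FPKM to 9.86 and 8.35 FPKM (1.23 ± 0.16, adjusted p 0.00298). BMP6, known as the signal that induces hepcidin in the liver, fell from 2.52 and 2.53 FPKM to 0.67 and 1.06 FPKM (-0.93 ± 0.16, adjusted p 0.00707). BMP6 reached the filter through its WT libraries and lay near 1 FPKM in KO, so this p supports little. Its difference was -0.36 with a pseudocount of 5 and -1.47 with a pseudocount of 0.1. FURIN, a protease that trims many precursors, fell from 48.2 and 57.0 FPKM to 33.5 and 28.9 FPKM (-0.74 ± 0.14, adjusted p 0.00978). Without the second WT library FURIN no longer passed (adjusted p 0.0610). The ferroxidase genes HEPH and CP, which work beside ferroportin, were at or under 0.08 FPKM.

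Genes that hand iron to ferritin or act in its turnover moved in both directions, with 3 of 7 tested higher, 2 lower and a median of 0.013. The iron chaperone PCBP1, which delivers iron to ferritin, fell from 242 and 257 FPKM to 190 and 162 FPKM (-0.51 ± 0.12, adjusted p 0.0183). Its relative PCBP2 fell from 219 and 224 FPKM to 172 and 146 FPKM (-0.48 ± 0.12, adjusted p 0.0216). FTH1 over PCBP1 was 2.27 and 2.50 in WT and 9.93 and 13.2 in KO, which mostly restates the rise of FTH1. FBXL5, the iron-sensing ligase subunit that marks iron regulatory protein 2 for destruction, rose from 6.57 and 6.36 FPKM to 10.9 and 11.4 FPKM (0.70 ± 0.14, adjusted p 0.0116). TAX1BP1, an autophagy receptor that takes part in ferritin turnover, rose from 23.4 and 19.3 FPKM to 28.9 and 39.4 FPKM (0.65 ± 0.18, adjusted p 0.0322). BOLA2, the third to rise, has a near-identical copy and is uncertain. Without the second KO library none of the 7 passed in limma (adjusted p 0.0702 for FBXL5, 0.157 for TAX1BP1, 0.0697 for PCBP1 and 0.0792 for PCBP2), although 5 had an unadjusted p under 0.05. Without the first or without the second WT library only FBXL5 passed.

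Of 20 heme genes 18 were tested, 7 rose and none fell, with a median of 0.37, while 10 and 1 had an unadjusted p under 0.05. After scaling by the median of ratios BACH1 was no longer among the rises, of which 6 were left, and HMOX2 fell (-0.53 ± 0.14, adjusted p 0.0290). TMEM14C, which passes a heme precursor into the mitochondrial matrix, rose from 86.0 and 96.1 FPKM to 182 and 210 FPKM (1.09 ± 0.12, adjusted p 0.00198). BLVRB, which encodes a biliverdin reductase, rose from 34.2 and 46.0 FPKM to 89.8 and 99.5 FPKM (1.23 ± 0.16, adjusted p 0.00295). The other biliverdin reductase gene of the list, BLVRA, did not pass in limma (0.21 ± 0.13, adjusted p 0.266). Picked after their values were seen, the synthesis enzymes UROS (0.80 ± 0.12) and PPOX (1.20 ± 0.17) also rose, as did BACH1 (0.59 ± 0.18), a repressor of HMOX1. The rate-limiting enzyme gene ALAS1 did not pass (0.025 ± 0.12), nor did HMOX2, the constitutive heme oxygenase gene (-0.42 ± 0.15, adjusted p 0.0675). Without the first WT library 4 heme genes passed.

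Of 32 genes of mitochondrial iron and iron-sulphur clusters, all tested, 4 rose, 3 fell and 25 did not pass, with a median of -0.097. ISCU, the scaffold on which clusters are built, was 1.38 times higher in KO (0.46 ± 0.12, adjusted p 0.0279) and ISCA2 1.39 times higher (0.46 ± 0.13, adjusted p 0.0320). MMS19, which helps deliver clusters to nuclear enzymes, fell (-0.44 ± 0.12, adjusted p 0.0282), as did GLRX5, which relays clusters in mitochondria (-0.42 ± 0.11, adjusted p 0.0307). Each of these calls was lost when any 1 library was left out (adjusted p 0.0554 to 0.179 over the 4 genes). With 1 library left out, 0 or 1 of the 32 genes passed in limma, with 6 to 10 at an unadjusted p under 0.05 where none passed. FDXR (0.49 ± 0.15) and CISD2 (0.53 ± 0.15) also rose and NDOR1 fell (-0.45 ± 0.14), named after their values were seen. After scaling none of the 32 rose (4 at an unadjusted p under 0.05) and 5 fell, MMS19, GLRX5, NDOR1, HSPA9 and CIAPIN1.

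Of the 10 listed NRF2 pathway genes 3 rose and none fell, with a median of 0.26. That is 30% passing, beside 27% over all tested genes. The pathway is known to induce ferritin genes and HMOX1, and whether it had a part in these differences was not tested. NFE2L2, which encodes NRF2, rose from 18.0 and 12.8 FPKM to 34.5 and 44.4 FPKM (1.31 ± 0.19, adjusted p 0.00444). NQO1, which encodes a quinone reductase, rose from 60.1 and 79.3 FPKM to 125 and 114 FPKM (0.78 ± 0.15, adjusted p 0.0104) and was named after its values were seen. The glutathione synthesis genes GCLC (-0.018 ± 0.14) and GCLM (-0.045 ± 0.13) did not pass. Nor did KEAP1 (0.059), SRXN1 (0.070), MAFG (0.15), SLC7A11 (0.37) and TXNRD1 (0.49). The core letters TGACNNNGC of the antioxidant response element, sought on both strands in RefSeq windows from 250 bases before to 50 after the start (GRCh38.p14), were found in 1 of 13 windows of 8 members, an alternative start of NCOA4, and in 13.3% of all 35116 windows. FTH1 and HMOX1 had no window in that table, and elements farther from the start were not sought, so nothing about the pathway is read from this count.

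Among 4 tested mRNAs outside the set that are known to carry an IRE, EPAS1 rose and none fell, with a median of 0.18. EPAS1, the gene of HIF-2α, was at 2.55 and 3.46 FPKM in WT and at 11.8 and 5.09 FPKM in KO (1.15 ± 0.32, adjusted p 0.0340). Its KO libraries were far apart, and it did not pass without the first KO library (adjusted p 0.109), the first WT library (0.131) or the second WT library (0.0637).

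**Figure D5:**
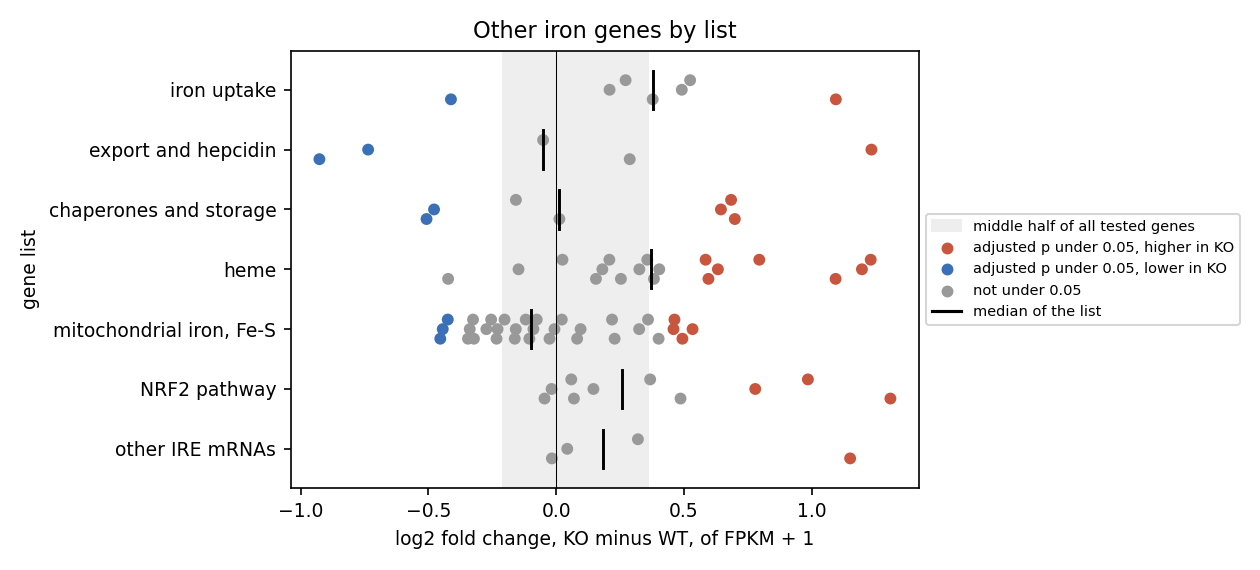
KO minus WT difference in log2(FPKM + 1) of the tested genes in 7 further iron lists; red points passed an adjusted p of 0.05 (limma) higher in KO, blue lower, grey did not pass, short black lines are list medians, vertical offsets within a list carry no meaning, and the grey band runs from the lower to the upper quartile of all tested genes. The heme list has 7 red and 0 blue of 18 tested genes, the NRF2 list 3 red and 0 blue of 10, and the other IRE list 1 red of 4. After scaling by the median of ratios the heme list had 6 higher and 1 lower. The mitochondrial list has 4 red and 3 blue. Over all tested genes 16.2% passed higher and 10.8% lower in KO.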

How the data were processed

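The authors deposited 1 table with an FPKM value per gene and library, with 2 decimals, per the file headers. HISAT, StringTie, Cufflinks and GATK and the build hg38 are named, per the submitters' processing notes, without roles or versions. Libraries were made with a TruSeq RNA kit from Trizol RNA, per the labels' protocols. Read counts were not used here and depth is unknown, so the precision of low values cannot be given.

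All 4 value columns matched 1 sample each. FPKM values were analysed as log2(FPKM + 1) in genes that reached 1 FPKM in 2 or more libraries, with limma 3.58.1 (R 4.3.3, trended moderated test, Benjamini-Hochberg over all tested genes, threshold 0.05), after the code was tested on simulated data. Fold changes on this scale understate low genes. Older symbols were matched by gene identifier (RefSeq, GRCh38.p14). Python 3.11.15 and pandas 2.3.3 read the tables. UTRs came from GENCODE 29.

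The members and gene lists were chosen with earlier results of these data known. Besides the members, the text names up to 2 rising and 2 falling genes with the smallest p per list, and the 3 nearest profiles to FTH1 and TFRC; others were picked after their values were seen. A gene taken by this rule is not reported here. Alternatives were other pseudocounts, filters, scaling, no trend, a replicate block and leaving out each library.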

Additional observations from a re-analysis of the deposited data

How the results depend on the processing

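Over 12 alternatives the log2 differences of FTH1 and FTL ranged from 1.64 to 1.86 and from 1.68 to 2.002, under the threshold in each, which is no independent support because both were chosen on this contrast. Over 27 genes, 323 values were recomputed, of which none that passed changed sign, 69 lost their call and 1 gained it. Without the filter on low values 525 genes passed over all, and 1 uptake gene, 1 export gene, 2 heme genes and 0 of the chaperone, mitochondrial, NRF2 and other IRE lists in limma (5, 11, 3 and 0 at an unadjusted p under 0.05). With a pseudocount of 0.1, or with no trend, 1 uptake gene passed. Leaving out 1 library gave 1402 to 1902 genes over all, 1 to 2 uptake genes, 0 to 5 chaperone genes, 4 to 6 heme genes, 0 to 1 mitochondrial gene and 0 to 1 other IRE gene.

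Deviations of same-numbered replicates were weakly and negatively correlated across genes (-0.18), though those of FTH1 and FTL went the same way, and the labels name nothing that the numbers share, so the libraries were not treated as paired. With the replicate block 2864 genes passed, with 1 uptake gene and 3 mitochondrial genes, and HMOX1 and NCOA4 did not pass. With the block crossed, chosen after seeing the data, 4170 genes, 5 uptake genes and 5 NRF2 genes passed. The cause of these shifts was not tested. With 2 libraries per group and unknown depth, small differences such as those of TFRC and IREB2 are not resolved.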
